A study of Rattus norvegicus with 4 samples.

Results

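Vip interneurons are cortical GABA neurons that make vasoactive intestinal peptide. They were picked from single-nucleus RNA profiles of the rat orbitofrontal cortex by the molecules (UMIs, unique molecular identifiers) counted in each nucleus. A nucleus entered with at least 500 genes, at most 5% mitochondrial UMIs, at least 2 UMIs of Gad1 and Gad2 together, which make GABA, and at most 1 UMI of Slc17a7, the vesicular glutamate transporter of cortical excitatory neurons. It also needed at least 1 UMI of Vip, at least 2 of Adarb2, a gene of interneurons from the caudal ganglionic eminence, at most 2 of Reln, Sv2c and Pde11a together, which mark neurogliaform-type cells, and none of Pvalb. In all, 303 nuclei met these conditions, of 3190 GABA nuclei and of 43903 nuclei that passed the first 2 filters. The other 2887 GABA nuclei, which met the Gad and Slc17a7 conditions, served as the comparison.

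The tissue came from male Sprague-Dawley rats aged 8 weeks, without any stated genetic change. The METH rats received methamphetamine, a stimulant drug that acts by releasing monoamines such as dopamine, at 1 mg/kg into the peritoneum over 7 days, and the saline rats received saline the same way. Each group had 4 animals and was measured in 2 libraries. The sources used here do not say which animals went into which library. The p-values therefore rest on the spread among libraries alone, and that spread may be technical.

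Vip interneurons receive strong input from other cortical areas and from neuromodulatory systems, and many of them inhibit other interneurons, above all those that make somatostatin. Through this chain they release pyramidal cells from inhibition. They arise in the caudal ganglionic eminence, an embryonic source of interneurons marked by the transcription factors Prox1 and Nr2f2, and they fall into kinds that also make calretinin (Calb2), cholecystokinin (Cck), corticotropin-releasing hormone (Crh), enkephalin (Penk), neurokinin B (Tac3) or, in rodents, the acetylcholine-making enzyme Chat.

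The Vip gene itself carries the identity of these cells, so the sequence at its start is shown. It is taken from RefSeq (build GRCr8, chr1:44470230-44470529, plus strand), covers 250 bases before and 50 bases after the start, and has in capitals TGACGTC, the core of the cAMP response element through which cAMP is known to drive this gene.
Vip promoter: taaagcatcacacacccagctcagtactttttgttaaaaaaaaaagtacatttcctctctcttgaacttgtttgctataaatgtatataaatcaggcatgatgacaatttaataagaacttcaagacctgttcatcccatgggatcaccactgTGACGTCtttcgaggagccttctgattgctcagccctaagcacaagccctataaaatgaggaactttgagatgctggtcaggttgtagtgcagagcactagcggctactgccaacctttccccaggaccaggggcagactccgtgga
The motif was searched on both strands, and its single match lies at bases -97 to -91 from the start. Of 33469 rat promoters of the same length, 1078 (3.22%) hold it. The match describes the letters in this window and was not tied to any measurement of binding.

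The libraries differed in depth, and saline replicate 1 stood apart. The files held 8467 to 18958 barcodes and 37758602 to 44034787 UMIs per library, and the library with the most barcodes, saline replicate 1, had the fewest UMIs per nucleus. Vip nuclei had a median of 3185 and 3484 UMIs in METH replicates 1 and 2, and of 2053 and 3639 UMIs in saline replicates 1 and 2. Values are therefore given per library, and the comparisons were also made without saline replicate 1. Between 23 and 69 barcodes occurred in a given pair of libraries, and none of them was a Vip nucleus in both. Scrublet, a caller of barcodes that hold more than 1 nucleus, marked 7 and 4 of the Vip nuclei in METH replicates 1 and 2 and 5 and 4 in saline replicates 1 and 2. These nuclei were kept, and leaving them out was tried as an alternative.

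METH replicates 1 and 2 gave 93 and 82 Vip nuclei, and saline replicates 1 and 2 gave 56 and 72. At the edge of the gate, 61 of the 303 held exactly 1 Vip UMI, while 167 held 4 or more and the highest held 43. Just outside it, 99 nuclei met every other condition and had no Vip UMI. A further 22 nuclei were left out by 3 UMIs of Reln, Sv2c and Pde11a, 20 by having 1 Adarb2 UMI, and 187 by having 1 Gad UMI, beside 142 nuclei inside with exactly 2. Vip UMIs also occurred in cells not known to make the peptide. At least 1 Vip UMI was found in 8.02% and 8.37% of excitatory nuclei in METH replicates 1 and 2 and in 6.18% and 5.42% in saline replicates 1 and 2. Oligodendrocytes, at median depths of 1085 to 1444 UMIs, had shares of 5.99% to 8.58%, so a single Vip UMI is weak evidence by itself.

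Prox1, a transcription factor that the gate did not use, served to check that the nuclei were of the caudal source. The gate already asked for Adarb2, a gene of that source, so a gap to the other GABA nuclei was in part set by the gate. Prox1 does not by itself separate Vip nuclei from neurogliaform-type cells, toward which its gap was narrow, as given below. It was detected in 51.6% and 58.5% of Vip nuclei in METH replicates 1 and 2 and in 46.4% and 68.1% in saline replicates 1 and 2, or 171 of 303. The share was 10.6% to 15.4% in the other GABA nuclei and 1.01% to 1.21% in excitatory nuclei, which were deeper, at medians of 4431 to 8328 UMIs. Oligodendrocytes, at the lower median depths given above, had Prox1 in 15.6% and 15.3% in METH replicates 1 and 2 and in 13.2% and 19.6% in saline replicates 1 and 2, so it was not restricted to GABA nuclei. Among the nuclei that missed only the Vip condition, Prox1 was detected in 28.6% and 31.3% in METH replicates 1 and 2 and in 19.1% and 13.3% in saline replicates 1 and 2. Lhx6, the factor that defines interneurons of the medial ganglionic eminence, had no UMI in any Vip nucleus. A count of 0 among 303 allows up to 0.99% of nuclei with a UMI and, for a gene this sparse, does not limit the share of nuclei that express it. In the other GABA nuclei Lhx6 stood at 30.6 and 39.9 CPM (UMIs of a gene per 1e6 UMIs of the summed nuclei) in METH replicates 1 and 2 and at 25.7 and 32.4 CPM in saline replicates 1 and 2.

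Markers of excitatory neurons, glia and vascular cells were present in Vip nuclei. The summed level of 12 excitatory markers was 348 to 704 CPM in Vip nuclei, highest in saline replicate 1, and 641 to 910 CPM in the other GABA nuclei, and of these genes Slc17a6 was at 0 in Vip nuclei of every library. Slc17a7, of which the gate allowed 1 UMI, was found in 20 of the Vip nuclei. It had 24 and 9.67 CPM in METH replicates 1 and 2 and 36.3 and 14.9 CPM in saline replicates 1 and 2, against 9.29 to 41.4 CPM in the other GABA nuclei, which had the same limit. The 10 oligodendrocyte markers summed to 403 to 603 CPM in Vip nuclei and 222 to 374 CPM in the other GABA nuclei, with Mag higher in Vip nuclei of all 4 libraries. Astrocyte markers summed to 421 to 549 CPM in Vip nuclei, microglia markers to 123 to 189 CPM and vascular markers to 7.26 to 58 CPM, with Gfap at 0 in all libraries. Lists of other interneuron kinds include genes of the gate. The 10 Pvalb interneuron markers summed to 4836 to 6280 CPM in Vip nuclei and to 3915 to 4750 CPM in the other GABA nuclei. Of 7 outside the gate and past 20 CPM, Erbb4 and Btbd11 were higher in Vip nuclei of all 4 libraries. Lhx6, Kcnc1, Tac1 and Eya4 were lower. The 10 Sst markers summed to 1060 to 1351 CPM in Vip nuclei and to 3711 to 4832 CPM in the others. The 9 neurogliaform-type markers summed to 261 to 349 CPM, against 2160 to 2944 CPM.

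Within the Vip nuclei, the genes that mark kinds of Vip interneuron were each found in a minority. Cck, the precursor of cholecystokinin, was detected in 47.3% and 31.7% of nuclei in METH replicates 1 and 2 and in 17.9% and 30.6% in saline replicates 1 and 2. Excitatory nuclei, which also make Cck, had shares of 32.2% to 47% at a higher depth. Oligodendrocytes, which are not known to make it, had 9.71% to 17.9% at a lower depth. At equal depths of 2000 UMIs, Cck was found in 32.5% and 20.3% of Vip nuclei in METH replicates 1 and 2. In saline replicates 1 and 2 it was found in 13.3% and 25.8% of them. Excitatory nuclei at that depth had 16.8% and 15.4% in METH replicates 1 and 2. They had 17.4% and 16.6% in saline replicates 1 and 2. Vip nuclei were higher in each library but saline replicate 1, where 30 Vip nuclei remained, and the gap was not tested. Chat, choline acetyltransferase, was detected in 18.3% and 28% in METH replicates 1 and 2 and in 8.93% and 33.3% in saline replicates 1 and 2. Chat stood far above its background, which was 0.459% to 0.877% in the other GABA nuclei and at most 0.0862% in excitatory nuclei.

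Penk, the enkephalin precursor, was detected in 17.2% and 13.4% of Vip nuclei in METH replicates 1 and 2 and in 8.93% and 27.8% in saline replicates 1 and 2. Tac3, the neurokinin B precursor, was detected in 24.7% and 17.1% in METH replicates 1 and 2 and in 16.1% and 12.5% in saline replicates 1 and 2. The calcium-binding protein gene Calb2 was detected in 23.7% and 11% in METH replicates 1 and 2 and in 16.1% and 8.33% in saline replicates 1 and 2. These 3 genes varied between replicates of 1 group by as much as between the groups. Crh, the stress peptide precursor, was the most even, at 12.9% and 15.9% in METH replicates 1 and 2 and 14.3% and 12.5% in saline replicates 1 and 2. In oligodendrocyte and excitatory nuclei Calb2, Crh, Penk and Tac3 were found in 0% to 2.67%.

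**Figure D1:**
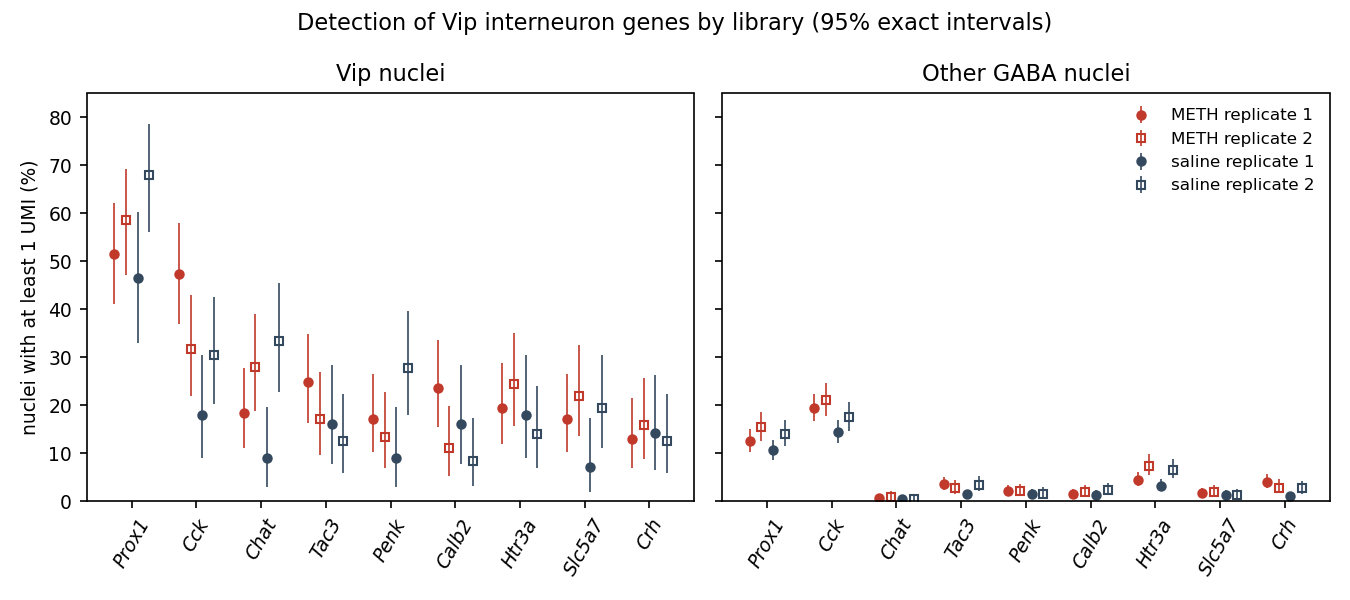
Share of nuclei with at least 1 UMI of 9 genes (y axis, %), in Vip nuclei (left) and other GABA nuclei (right), by library, with 95% exact intervals that cover counting error only. Prox1 lies at 46.4% to 68.1% in Vip nuclei, and saline replicate 1, the shallowest library, has the lowest share of Prox1, Cck, Chat, Penk and Slc5a7.

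Of the 6 genes Calb2, Cck, Crh, Chat, Penk and Tac3, none was detected in 81 Vip nuclei, 1 in 118, 2 in 76 and 3 or more in 28. Saline replicate 1 held no nucleus with 3 or more. Chat went with Slc5a7, the high-affinity choline transporter of cholinergic neurons. Over all libraries Slc5a7 was found in 33.3% of the 69 nuclei with Chat and in 12.4% of the 234 without it, at median depths of 3402 and 3035 UMIs, and the share was higher beside Chat in all 4 libraries. Slc18a3, the vesicular acetylcholine transporter, was found in only 1.22% to 2.78% of Vip nuclei. Crh was found in 22.5% of the 102 nuclei with Cck and in 9.45% of the 201 without it, a direction that METH replicate 2 did not share (15.4% with Cck and 16.1% without), and in 6.52% of the 46 nuclei with Calb2 and 15.2% of the 257 without it. Tac3 was found in 27.5% of nuclei with Cck and in 13.4% of those without it, and the share was higher beside Cck in all 4 libraries. Chat was found in 21.7% of nuclei with Calb2 and in 23% of those without it. These pairings were picked from a larger set of pairs that were counted. They describe the pooled nuclei of 4 libraries, were not tested, and rest in part on Cck, which was also detected in oligodendrocytes.

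Other candidate markers gave little. Sncg, a marker of large Cck basket cells, had no UMI in the Vip nuclei and was found in only 0.115% to 0.374% of the other GABA nuclei, so it was too sparse to be assessed here. Sst, the somatostatin gene, was detected in 5.36% to 8.6% of Vip nuclei, near the 4.34% to 9.98% of oligodendrocytes. Npy, the neuropeptide Y gene, had no UMI in the Vip, other GABA, excitatory or oligodendrocyte nuclei, so it was unmeasured here.

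The profile of Vip nuclei was set against the other GABA nuclei of the same library. The gate chose nuclei on this contrast, so the ratios are a description and carry no test. Of the 2887 other GABA nuclei, 577 were assigned to Lamp5-type, 171 to Sst and 140 to Pvalb interneurons, and most to no named kind. Vip itself had 61.5 and 47.8 CPM in them in METH replicates 1 and 2 and 43.4 and 29.4 CPM in saline replicates 1 and 2. Ratios are log2 with 10 CPM added, given as the mean ± SD over the 4 libraries. Of 7406 genes past 20 CPM and outside the gate, 14.5% were higher in Vip nuclei in all 4 libraries and 19.8% were lower, 1.32% were more than 2-fold higher and 1.4% more than 2-fold lower throughout, and the median ratio was -0.06. Counts of gene groups in this profile cover their members past 20 CPM. The named genes are the 25 with the steadiest large ratios upward and 12 downward.

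Most transcription factors divided by the embryonic source under which they were listed. Prox1 had 276 and 264 CPM in Vip nuclei of METH replicates 1 and 2 and 327 and 377 CPM in those of saline replicates 1 and 2. In the other GABA nuclei it had 40.2 and 56.1 CPM in METH replicates 1 and 2 and 51.7 and 46 CPM in saline replicates 1 and 2. All 4 libraries stood well apart, with a ratio of 2.45 ± 0.30. Of 7 factors listed for the caudal ganglionic eminence, the 6 past 20 CPM were higher throughout, with a median of 0.65. Sp8 fell under that limit, at 0 to 12 CPM in Vip nuclei. The 6 were Prox1, Sall1 (2.03 ± 0.48), Nr2f2 (0.65 ± 0.09), Zeb2, Nr2f1 and Npas1. Scml4, a relative of the Polycomb repressors, had 204 and 290 CPM in METH replicates 1 and 2 and 203 and 317 CPM in saline replicates 1 and 2, against 13.1 to 19 CPM in the other GABA nuclei (ratio 3.27 ± 0.44). Of 7 factors of the medial ganglionic eminence, 5 were lower throughout, among them Lhx6, Sox6 and Satb1. Sox6, which medial interneurons need to mature, had 27 and 70.9 CPM in METH replicates 1 and 2 and 65.4 and 18.7 CPM in saline replicates 1 and 2, against 1000 to 1196 CPM in the other GABA nuclei (ratio -4.49 ± 0.82). Satb1 had a ratio of -3.19 ± 0.28. Against Lamp5-type interneurons alone, the 577 GABA nuclei with at least 3 UMIs of Reln, Sv2c and Pde11a, Prox1 had a ratio of 0.85, Sox6 of -0.17 and Satb1 of 0.59. Against Sst interneurons (171 nuclei) the ratios were 4.89, -4.99 and -4.19, and against Pvalb interneurons (140 nuclei) 4.99, -5.10 and -3.10, so the gaps were wide toward these 2 kinds and narrow toward Lamp5-type nuclei.

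**Figure D2:**
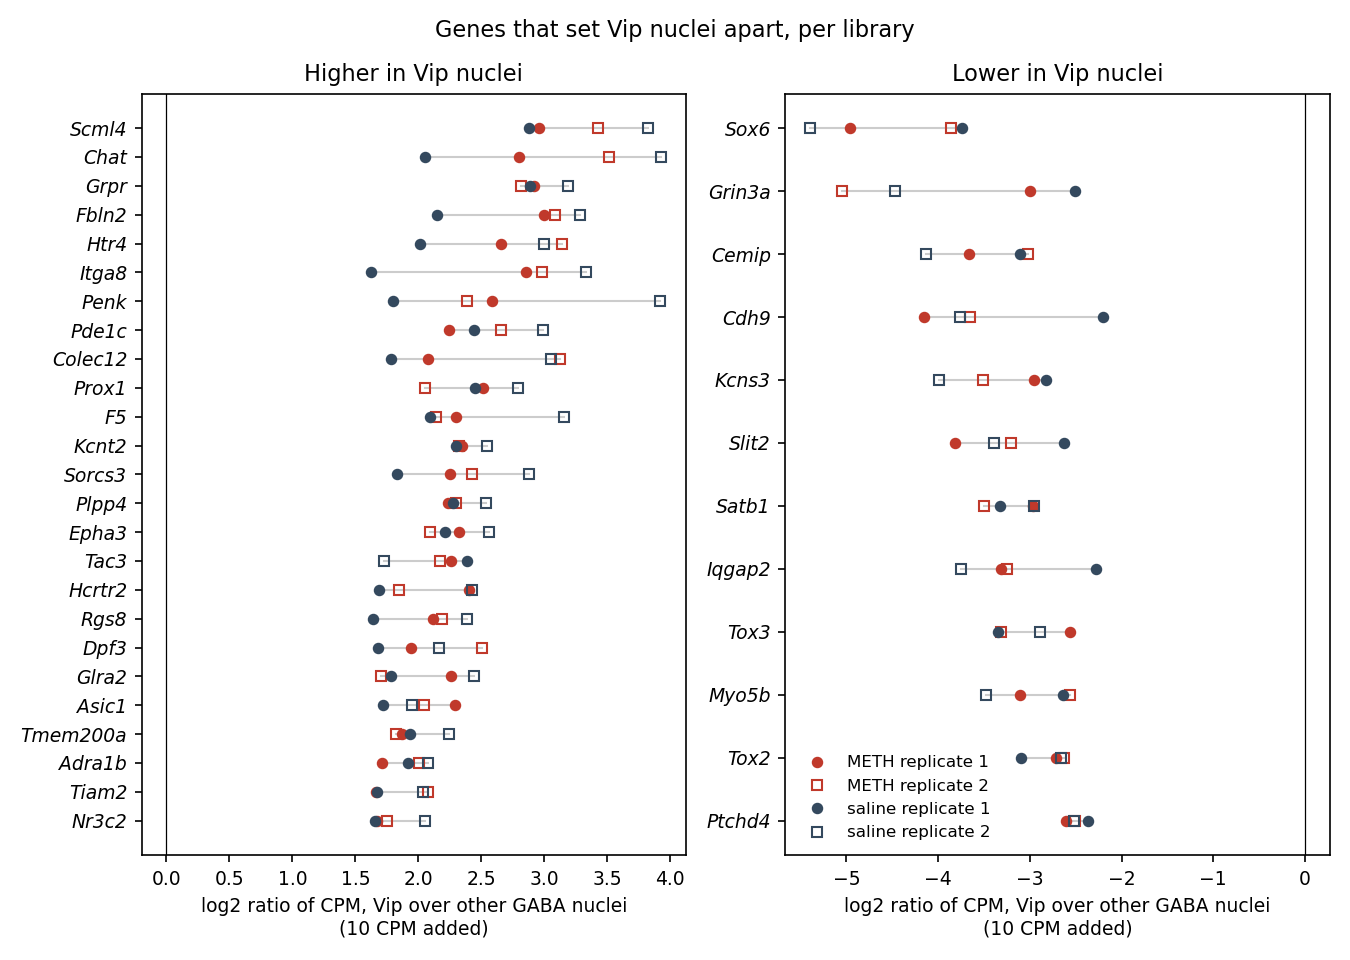
log2 ratio of CPM in Vip nuclei over other GABA nuclei of the same library (x axis, 10 CPM added) for the 25 genes named as higher (left) and the 12 named as lower (right), 1 point per library. Every point lies on 1 side of 0, with mean ratios of 1.78 to 3.27 on the left and -4.49 to -2.50 on the right.

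Transmitters and peptides came next. Chat had 78 and 135 CPM in Vip nuclei of METH replicates 1 and 2 and 43.6 and 160 CPM in those of saline replicates 1 and 2, against 1.19 to 2.9 CPM in the other GABA nuclei (ratio 3.07 ± 0.82). Of 8 peptide precursors past 20 CPM, 5 were higher throughout, Penk (2.67 ± 0.90), Tac3 (2.14 ± 0.29), Crh (2.11 ± 0.45), Cck (1.18 ± 0.42) and Pnoc, the nociceptin precursor, and 2 were lower, Tac1 and Sst. The median was 0.82. Slc5a7 had 84 and 87.1 CPM in METH replicates 1 and 2 and 29 and 97 CPM in saline replicates 1 and 2, against 2.67 to 4.96 CPM (ratio 2.49 ± 0.75). Penk and Chat were lowest in saline replicate 1 and highest in saline replicate 2, which was the widest spread among these genes.

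Receptors for peptides and monoamines were prominent. Grpr, the receptor for gastrin-releasing peptide, had 120 and 87.1 CPM in METH replicates 1 and 2 and 94.4 and 119 CPM in saline replicates 1 and 2, against 3.79 to 7.19 CPM in the other GABA nuclei (ratio 2.95 ± 0.17). Of 7 peptide receptors, 5 were higher throughout, Grpr, the orexin receptor Hcrtr2 (2.09 ± 0.38), Npy5r, the mu opioid receptor Oprm1 (0.94 ± 0.35) and the PACAP receptor Adcyap1r1 (0.20 ± 0.14), while the delta opioid receptor Oprd1 (-2.20 ± 0.76) and the substance P receptor Tacr1 were lower. Among 4 serotonin receptors, Htr4, which raises cAMP, had a ratio of 2.70 ± 0.50, the ion channel Htr3a of 1.82 ± 0.39 and Htr2c of 1.36 ± 0.35, while Htr2a was lower, at -1.22 ± 0.20. Of the alpha-1 adrenergic receptors, Adra1b was higher (1.93 ± 0.16) and Adra1a lower (-0.39 ± 0.05). The nicotinic subunits Chrna5 (1.20 ± 0.19) and Chrna7 (0.32 ± 0.10) were higher. Hcrtr2 and Adra1b differed by only 0.81 and 0.74 from Lamp5-type interneurons, whereas Grpr and Htr4 differed from them by 3.00 and 3.04. Nr3c2, the mineralocorticoid receptor, had 1026 and 1051 CPM in METH replicates 1 and 2 and 922 and 1116 CPM in saline replicates 1 and 2, against 261 to 316 CPM (ratio 1.78 ± 0.19).

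Channel genes leaned the other way. Kcnt2, a sodium-activated potassium channel, had 1693 and 1770 CPM in Vip nuclei of METH replicates 1 and 2 and 1881 and 1884 CPM in those of saline replicates 1 and 2, against 315 to 375 CPM in the other GABA nuclei (ratio 2.38 ± 0.11). Kcnq5 (1.26 ± 0.06) and the SK channels Kcnn2 (0.89 ± 0.30) and Kcnn3 (0.92 ± 0.37) were the only other members higher throughout among 24 potassium and HCN channel genes, of which 10 were lower. The lower ones include Kcnc1 and Kcnc2, which speed up spiking in Pvalb interneurons. Kcnc2 had 1228 to 1815 CPM in Vip nuclei and 3442 to 4402 CPM in the other GABA nuclei (ratio -1.48 ± 0.38). Kcns3, a modulatory potassium channel subunit, had a ratio of -3.32 ± 0.54. Of 16 sodium and calcium channel genes, 7 were lower and 1 was higher, the T-type channel Cacna1g (0.67 ± 0.22). Cacna2d2 was the lowest of them, at -2.27 ± 0.45. The medians of these lists were -0.11 and -0.25.

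Glutamate receptors were split, with 8 of 21 higher and 11 lower throughout and a median of -0.16. The metabotropic receptors Grm8 (1.46 ± 0.28) and Grm7 (1.43 ± 0.28) and the NMDA subunit Grin2b (0.36 ± 0.17) were higher. The NMDA subunit Grin3a, at 0 to 29 CPM in Vip nuclei and 212 to 322 CPM in the other GABA nuclei, had a ratio of -3.76 ± 1.20, and the kainate subunit Grik1 of -0.92 ± 0.14. Of 14 GABA receptor genes, 6 were higher and 4 lower with a median of -0.00, among them Gabrd (-1.50 ± 0.53), the subunit of extrasynaptic receptors. The glycine receptor Glra2 (2.05 ± 0.36) and the proton-gated channel Asic1 (2.00 ± 0.24) were among the genes named as higher.

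Adhesion and matrix genes completed the profile. The ephrin receptor Epha3 had 1207 and 1351 CPM in METH replicates 1 and 2 and 1038 and 1317 CPM in saline replicates 1 and 2, against 215 to 309 CPM (ratio 2.30 ± 0.20). The sorting receptor Sorcs3 (2.35 ± 0.44), the matrix protein Fbln2 (2.88 ± 0.50), the integrin Itga8 (2.70 ± 0.74), the collectin Colec12 (2.51 ± 0.68), the phosphatase Plpp4 (2.34 ± 0.14), the phosphodiesterase Pde1c (2.58 ± 0.32) and the coagulation factor gene F5 (2.42 ± 0.49) were also higher. Lower were the cadherin Cdh9 (-3.44 ± 0.85), the guidance cue Slit2 (-3.26 ± 0.49), the hyaluronan-binding Cemip (-3.48 ± 0.52), the factors Tox2 (-2.77 ± 0.22) and Tox3 (-3.03 ± 0.37), Myo5b, Iqgap2 and Ptchd4 (-2.50 ± 0.10). Of 24 synaptic adhesion genes, 11 were higher and 8 lower, with a median of 0.11. Dpf3, Rgs8, Tiam2 and Tmem200a, the rest of the genes named as higher, had ratios of 1.86 to 2.08.

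METH and saline were then compared within Vip nuclei. As a share of GABA nuclei, Vip nuclei made up 10.4% (95% exact interval 8.46 to 12.6%) and 12.6% (10.1 to 15.4%) in METH replicates 1 and 2. They made up 6.03% (4.59 to 7.77%) and 10.1% (7.97 to 12.5%) in saline replicates 1 and 2. The mean was 11.5 ± 1.55% in METH and 8.06 ± 2.86% in saline (SD, n = 2 each), a difference of 3.42 percentage points, and a two-sided exact permutation test gave p = 0.33, the smallest that 2 libraries against 2 can give. After each nucleus was thinned to 1500 UMIs and gated again, the shares were 7.94% and 7.49% in METH replicates 1 and 2 and 5.16% and 9.69% in saline replicates 1 and 2, and the groups overlapped. GABA nuclei under 1500 UMIs were left out, 17 and 15 in METH replicates 1 and 2 and 175 and 18 in saline replicates 1 and 2. Many more no longer met the gate once thinned. Nuclei above an upper limit of the gate, such as that on Slc17a7, could also fall under it and enter. The number that entered was not counted, so the thinned shares need not cover the same nuclei. The GABA nuclei after thinning were 441 and 334 in METH replicates 1 and 2 and 465 and 320 in saline replicates 1 and 2. The thinned shares rest on 35 and 25 Vip nuclei in METH replicates 1 and 2 and on 24 and 31 in saline replicates 1 and 2. Without saline replicate 1, the difference as deposited was 1.39 percentage points.

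**Figure D3:**
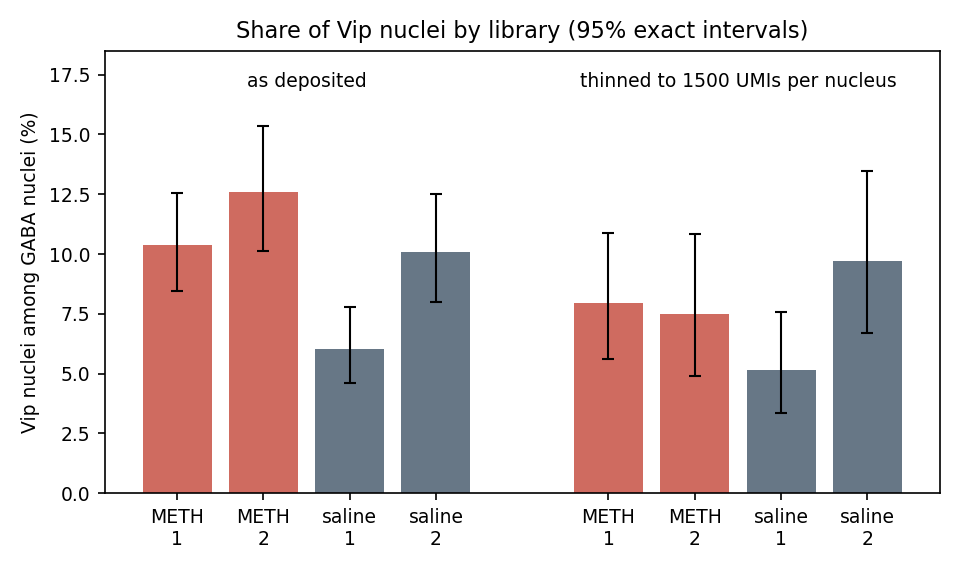
Vip nuclei as a share of GABA nuclei (y axis, %) in each library as deposited (left) and after thinning to 1500 UMIs per nucleus (right), with 95% exact intervals for counting error. The METH libraries stand at 10.4% and 12.6% as deposited, and at 7.94% and 7.49% after thinning, between the saline libraries at 5.16% and 9.69%.

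No gene passed the test in Vip nuclei between METH and saline. Counts were summed per library, to 333176 and 310160 UMIs in METH replicates 1 and 2 and 137718 and 268012 UMIs in saline replicates 1 and 2. Of 5420 genes tested with the quasi-likelihood test of edgeR, 0 (0%) had an adjusted p under 0.05, and 215 (3.97%) had an unadjusted p under 0.05. DESeq2 called 0 as well, with 13 at an unadjusted p under 0.05. For 17.2% of genes both METH values were above both saline values, and for 14.9% both were below. In counts simulated from these libraries, the test recovered 40% of 2-fold and 96% of 4-fold changes. The simulation gave every gene the same spread between libraries and placed changes only in genes past a minimum UMI count. Real genes differed in spread and some had fewer UMIs. Changes of 2-fold, and also of 4-fold, could therefore be missed more often than these shares say.

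The 5 genes with the smallest p in each direction are given as values, and each had an adjusted p of 0.9997 by edgeR. Rars1, an aminoacyl-tRNA synthetase, had 51 and 38.7 CPM in METH replicates 1 and 2 and 7.26 and 3.73 CPM in saline replicates 1 and 2, which rests on 1 UMI in each saline library. Uba3, part of the enzyme that activates NEDD8, had 78 and 70.9 CPM in METH replicates 1 and 2 and 14.5 and 26.1 CPM in saline replicates 1 and 2 (log2 fold change 1.72, SE 0.47). The protease inhibitor Cst3, cystatin C, had 321 and 306 CPM in METH replicates 1 and 2 and 109 and 209 CPM in saline replicates 1 and 2 (0.86, SE 0.25). Both METH values were above both saline values for each of these. The Golgi adaptor Gga3 (1.65, SE 0.48) and Fstl4 (0.69, SE 0.21) were the other 2 on the higher side.

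On the lower side, Ugcg, which makes glucosylceramide, had 48 and 41.9 CPM in METH replicates 1 and 2 and 109 and 123 CPM in saline replicates 1 and 2 (log2 fold change -1.39, SE 0.34). Blvrb, a biliverdin reductase, had 24 and 25.8 CPM in METH replicates 1 and 2 and 116 and 67.2 CPM in saline replicates 1 and 2 (-1.77, SE 0.44). Nos1, the neuronal nitric oxide synthase, had 12 and 16.1 CPM in METH replicates 1 and 2 and 65.4 and 48.5 CPM in saline replicates 1 and 2 (-1.94, SE 0.57). Limk1, a kinase of the actin cytoskeleton (-1.38, SE 0.42), and Chsy3, a chondroitin synthase (-0.67, SE 0.21), were the other 2. The levels of Ugcg in the other GABA nuclei were 56.4 and 53 CPM in METH replicates 1 and 2 and 49.2 and 58.5 CPM in saline replicates 1 and 2, and overlapped.

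**Figure D4:**
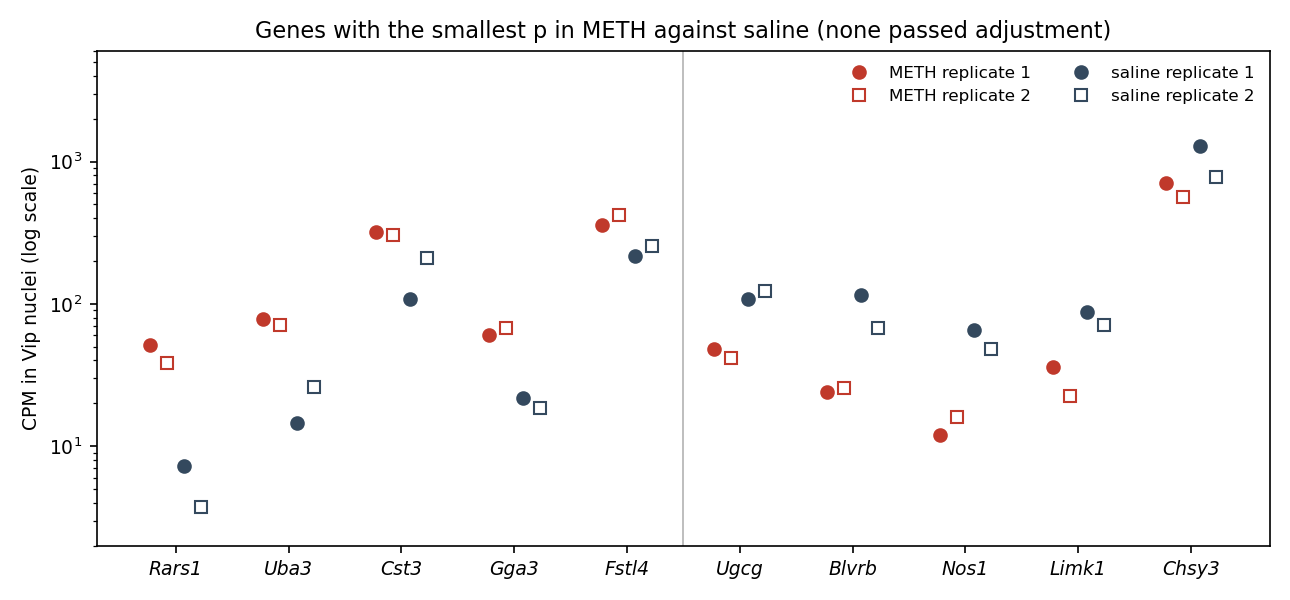
CPM in Vip nuclei (y axis, log scale) of the 5 genes with the smallest p on the higher side (left) and 5 on the lower side (right), 1 point per library. Both METH libraries lie on 1 side of both saline libraries for each gene, yet all 10 had an adjusted p of 0.9997.

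Genes that define Vip interneurons were spread over both directions. Of the 14 markers tested, 0 passed, 9 were positive and 5 negative, and their median log2 fold change was 0.20, beside -0.01 for all genes tested. Over all 5420 genes tested, 2653 were positive and 2767 negative. Without saline replicate 1 the marker median was -0.03. Prox1 had lower values in both METH libraries than in both saline libraries, with the values given above (-0.41, SE 0.20). Cck had 204 and 171 CPM in METH replicates 1 and 2 and 94.4 and 142 CPM in saline replicates 1 and 2 (0.58, SE 0.26, unadjusted p 0.04). Vip, a gene of the gate, had 1618 and 1377 CPM in METH replicates 1 and 2 and 1162 and 2213 CPM in saline replicates 1 and 2. For Calb2, Crh, Penk, Tac3 and Chat the groups overlapped, with log2 fold changes of 0.20, 0.33, -0.69, 0.20 and -0.15. At equal depths of 2000 UMIs the share of nuclei with Cck differed by 6.83 percentage points between METH and saline, against 15.3 as deposited. That depth left out 13 and 3 Vip nuclei in METH replicates 1 and 2 and 26 and 6 in saline replicates 1 and 2, so saline replicate 1 kept 30 of its 56.

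Receptor, channel and adhesion lists also gave no call. Of all 5420 genes tested, 2653 were positive and 2767 negative. The 3 tested serotonin receptors were positive, with a median of 0.52, and Htr2c had 336 and 355 CPM in METH replicates 1 and 2 and 298 and 198 CPM in saline replicates 1 and 2 (0.52, SE 0.22). Of 18 glutamate receptor genes, 4 were positive and 14 negative, with a median of -0.11. Grm8 had 1243 and 1006 CPM in METH replicates 1 and 2 and 1917 and 1384 CPM in saline replicates 1 and 2 (-0.55, SE 0.19). Chrm5, a muscarinic receptor, had 39 and 35.5 CPM in METH replicates 1 and 2 and 7.26 and 11.2 CPM in saline replicates 1 and 2, from 1 and 3 UMIs in saline. Of the 14 sodium and calcium channel genes 10 were negative (median -0.10), of the 20 potassium and HCN channel genes 12 (median -0.04), of the 22 adhesion genes 14 (median -0.12), and of the 12 GABA receptor genes 6 (median 0.03). Without saline replicate 1, the medians were 0.04, 0.02, -0.04 and -0.05 in the same order, and without METH replicate 2 the serotonin receptor median was 0.04.

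Genes through which METH is often studied were too rare to test in these nuclei. The dopamine receptor Drd1 had no UMI in any library, where a count of 0 allows up to 9 and 9.67 CPM in METH replicates 1 and 2 and up to 21.8 and 11.2 CPM in saline replicates 1 and 2. Drd2 had 1 UMI, in METH replicate 2. The immediate early gene Fos had 2 and 4 UMIs in METH replicates 1 and 2 and 1 and 7 UMIs in saline replicates 1 and 2. Npas4 had 3 and 1 UMIs in METH replicates 1 and 2 and 0 and 1 UMI in saline replicates 1 and 2. Bdnf and Fkbp5 were also below the filter, and of 4 testable activity-induced genes 2 were positive and 2 negative.

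Values of Cst3 and of the mitochondrially encoded genes in other nuclei are set beside those in Vip nuclei. At least 1 Cst3 UMI was found in 63.4% and 62.2% of Vip nuclei in METH replicates 1 and 2 and in 23.2% and 45.8% in saline replicates 1 and 2. The other GABA nuclei had 62% and 63.3% in METH replicates 1 and 2 and 21% and 40.5% in saline replicates 1 and 2. Oligodendrocytes, at the lowest depth, had 62.4% and 66.2% in METH replicates 1 and 2 and 29.3% and 43.8% in saline replicates 1 and 2. These shares come from unequal depths, and the levels differed by kind: in METH replicate 1 Cst3 had 321 CPM in Vip nuclei, 210 CPM in the other GABA nuclei, 137 CPM in excitatory nuclei and 775 CPM in oligodendrocytes. At equal depths of 2000 UMIs, Cst3 was found in 51.3% and 44.3% of Vip nuclei in METH replicates 1 and 2 and in 16.7% and 28.8% in saline replicates 1 and 2. Excitatory nuclei at that depth had 24.9% and 23.5% in METH replicates 1 and 2 and 13.1% and 15.9% in saline replicates 1 and 2. METH libraries were higher in both kinds. The class-by-treatment term of Cst3, for Vip against other GABA nuclei, was -0.07 (SE 0.26). The share that free RNA has in the level of Cst3 was not tested.

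All 8 tested mitochondrially encoded genes, beside 2767 of all 5420 genes tested, were negative, with a median of -0.61 and 0 called. Their summed level over 13 genes was 1552 and 871 CPM in Vip nuclei of METH replicates 1 and 2 and 1227 and 2269 CPM in those of saline replicates 1 and 2, so the groups overlapped. In the other GABA nuclei it was 1148 and 730 CPM in METH replicates 1 and 2 and 1019 and 1144 CPM in saline replicates 1 and 2. The median turned on saline replicate 2: it was 0.03 without it and -1.05, -0.18 and -0.98 without METH replicate 1, METH replicate 2 and saline replicate 1.

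**Figure D5:**
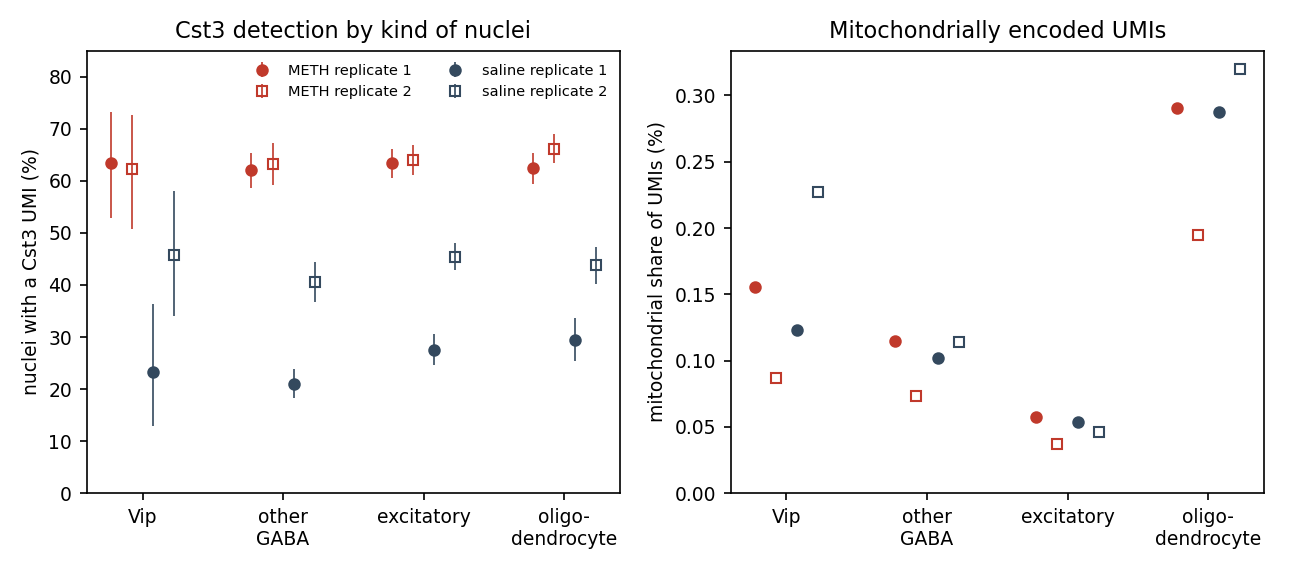
Left, share of nuclei with at least 1 Cst3 UMI (y axis, %, with 95% exact intervals) in 4 kinds of nuclei by library. Right, mitochondrially encoded UMIs as a share of all UMIs (y axis, %). In Cst3, METH libraries lie at 62% to 66.2% and saline libraries at 21% to 45.8% in every kind of nuclei, and saline replicate 2 has the highest mitochondrial share in Vip nuclei.

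Single libraries decided the few calls that could be had. Leaving out 1 saline library leaves the other as the only saline sample, which is then assumed to vary like METH. Without saline replicate 1, 8 genes passed, 5 higher (Ptprk, Cadps2, Zfp385b, Col4a4 and the GABA receptor subunit Gabrg1) and 3 lower (Mt-co2, Mt-atp6 and Mt-co3). Without saline replicate 2, 13 passed: Ankrd55 and Cst3 higher, and 11 lower, among them Il1rapl2, Gria3, Bcl11a, Grm8, Chsy3 and Blvrb. Il1rapl2 had 72 and 83.8 CPM in METH replicates 1 and 2 and 450 and 41 CPM in saline replicates 1 and 2, which lay on both sides of METH. Bcl11a had 36 and 38.7 CPM in METH replicates 1 and 2 and 232 and 29.8 CPM in saline replicates 1 and 2. Saline replicate 1 was high for both and had the highest summed excitatory markers, 704 CPM. The part of these markers in the calls was not tested. Without METH replicate 1, 4 genes were lower, Rorb, Tox, Mt-co3 and Mt-nd4, and without METH replicate 2 none passed.

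Whether the difference between METH and saline was itself different in Vip nuclei and in the other GABA nuclei was tested with a class-by-treatment term and the library as a block. Of 10595 genes, 0 (0%) passed at an adjusted p under 0.05 in edgeR, 394 (3.72%) had an unadjusted p under 0.05, and DESeq2 called 0 with 49 at that level. The smallest p belonged to Ptprk, a receptor phosphatase, at 162 and 90.3 CPM in Vip nuclei of METH replicates 1 and 2 and 182 and 26.1 CPM in those of saline replicates 1 and 2. In the other GABA nuclei Ptprk had 84.1 and 63.3 CPM in METH replicates 1 and 2 and 180 and 81.1 CPM in saline replicates 1 and 2. The term was 1.35 (SE 0.33, adjusted p = 0.392 by edgeR), and 0.00604 was its adjusted p without saline replicate 1. Cntnap5b (0.81, SE 0.22), Pde3a (-1.19, SE 0.31) and Blvrb (-1.79, SE 0.47) had the same adjusted p of 0.392 by edgeR. So did Cds1 (3.85, SE 1.04) and Rars1 (3.21, SE 0.87), whose large terms rest on few UMIs. In Vip nuclei Cds1 had 10 UMIs in each METH library and 0 and 1 in saline replicates 1 and 2. Rars1 had 1 UMI in each saline library. Pde3a, a phosphodiesterase of cAMP and cGMP, had 147 and 116 CPM in Vip nuclei of METH replicates 1 and 2 and 189 and 239 CPM in those of saline replicates 1 and 2. Without saline replicate 1, genes passing outside the gate were Ptprk, Cadps2 and Zfp385b with a positive term and Mt-co3 with a negative one. Vip had a negative term too, but its counts chose the nuclei, so it is not read as a call. Without saline replicate 2, 6 passed, Fstl4 and Caln1 with a positive term and Il1rapl2, Gria3, Rspo2 and Bcl11a with a negative one. The 2 sets had no gene in common, and with all 4 libraries no gene was shown to differ between METH and saline otherwise in Vip interneurons than in the other GABA nuclei.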

How the data were processed

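Nuclei were isolated from the orbitofrontal cortex, and the authors deposited, for each of 4 libraries, raw UMI counts per gene and barcode without normalization. Counts were made with Cell Ranger 7.0.0, per the submitters' processing notes. The notes name hg38 while the 25399 gene identifiers are rat; the sources used here give neither the rat build nor whether intronic reads were counted.

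The members and gene lists were chosen with earlier results of these data known. Nuclei were gated as stated, and counts were summed per library and class (Python 3.11.15, Scanpy 1.11.5, SciPy 1.17.1). METH was compared with saline by the two-sided quasi-likelihood test of edgeR 4.0.16 (TMM, filterByExpr, robust; R 4.3.3), and p-values were adjusted over all tested genes after Benjamini and Hochberg. DESeq2 1.42.0 was an alternative. The SE of a log2 fold change comes from its F. The test was checked on simulated counts with the same spread for every gene. Exact Clopper-Pearson intervals and the limit of 3 counts for a count of 0 cover counting error only. Scrublet marked the highest-scoring 0.8% per 1000 barcodes.

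Named genes of the profile were the 25 higher and 12 lower with the largest ratio in the least extreme library, past 20 CPM. In METH against saline they were the 5 smallest p in each direction, the 2 smallest p of each list, and a fixed set of Vip interneuron, activity and dopamine genes. Genes called only without a library, and members of list counts, were named after their values were seen. Replicate numbers did not pair the libraries.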

Additional observations from a re-analysis of the deposited data

How the results depend on the processing

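In Vip nuclei, 0 genes were called between METH and saline with RLE size factors, DESeq2, no filter on low counts, a fit that is not robust, at least 2 Vip UMIs, at least 1000 genes, at most 1% mitochondrial UMIs, Scrublet doublets left out, and 56 nuclei per library. Leaving out 1 library gave 0 to 13 calls, and 0 to 6 for the class-by-treatment term; the cause was not tested. With the replicate number as a block 0 genes were called, with 250 at an unadjusted p under 0.05. The numbers share only a label (correlation of deviations 0.06 over 5420 genes). For the class-by-treatment term no paired analysis was possible because the library block already holds the replicate number. A gate at 1 Gad UMI, chosen after seeing the data, took in 490 nuclei and gave 0 calls. Thinning moved the METH minus saline difference in the Vip share to 0.286 percentage points (1500 UMIs) and in the Crh share to -1.64 (2000 UMIs).

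Some named genes that did not pass with all 4 libraries changed sign under an alternative. Under the block Calb2 had a log2 fold change of -0.018 and Chat of 0.026. At 1 Gad UMI Crh had -0.13 and Chat 0.0023, and at 2 Vip UMIs Lamp2 had -0.0094. Over the fits that leave out 1 library, Calb2 ranged from -0.68 to 1.14, Crh from -0.14 to 0.69, Penk from -1.19 to 0.90, Tac3 from -0.066 to 0.41, Chat from -0.61 to 1.26, Igf1 from -0.076 to 1.01, Sox6 from -0.44 to 1.34, Adcyap1r1 from -0.42 to 0.016 and Oprm1 from -0.43 to 0.052. Maoa ranged from -1.14 to 0.44, Cnr1 from -0.22 to 0.53, Gabrg1 from -0.060 to 3.75, Gabra3 from -0.90 to 0.040, Homer1 from -0.40 to 0.24, Fgfr1 from -1.30 to 0.036, Nrg2 from -0.56 to 0.085 and Lamp2 from -0.011 to 1.48. Of 333 profile ratios under the alternatives, 27 moved by more than their SD and none changed sign. These genes were named for large ratios of the same sign in every library. Leaving out a library or adding fewer CPM therefore could not change a sign. Of the 25 and 12 named genes, 17 to 25 and 8 to 12 were named again.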

Other observations

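A few genes on the lists, not described above, had values in Vip nuclei that set both METH libraries apart from both saline libraries without passing the test (adjusted p 0.9997 by edgeR for each). Nr2f1, a transcription factor of the caudal ganglionic eminence, had 51 and 54.8 CPM in METH replicates 1 and 2 and 123 and 74.6 CPM in saline replicates 1 and 2 (log2 fold change -0.82, SE 0.36). Mybpc1, a myosin-binding protein gene, had 81 and 70.9 CPM in METH replicates 1 and 2 and 21.8 and 33.6 CPM in saline replicates 1 and 2 (1.34, SE 0.43). Kcnip4, a subunit of A-type potassium channels, had 153 and 119 CPM in METH replicates 1 and 2 and 232 and 190 CPM in saline replicates 1 and 2 (-0.61, SE 0.25). Beside these genes, 17.2% of all genes tested lay with both METH libraries above both saline libraries and 14.9% below.

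The nuclei with exactly 1 Vip UMI carried Prox1 in 50% and 47.4% in METH replicates 1 and 2 and in 52.4% and 100% in saline replicates 1 and 2, where the last rests on 5 nuclei. With at least 2 Vip UMIs the shares were 51.9% and 61.9% in METH replicates 1 and 2 and 42.9% and 65.7% in saline replicates 1 and 2.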
